A study of Mus musculus with 20 samples.

Results

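Hepatokines are proteins that the liver secretes into the blood and that act on other tissues. The set described here holds 9 genes, taken by name from the gene symbols of a mouse Agilent array: Fndc4, Tafa5 (listed on the array under its older symbol Fam19a5), Ahsg, Fetub, Sepp1 (also called Selenop), Angptl4, Angptl6, Lect2 and Gdf15. They are measured by 12 of the array's 41174 probes, and all 9 are among the 17189 genes and unnamed probes that were tested. Fndc4 and Tafa5 were selected on their measured difference in signal between the groups in an earlier look at these same arrays. Their differences are therefore described without a test. The 7 other members were tested within a fit across all genes.

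The responder group holds 10 livers of mice that the labels class as susceptible to diet-induced obesity. The non-responder group holds 10 livers of mice classed as resistant. All 20 samples come from male mice of the inbred strain C57BL/6J (the sample labels write C57BL/6), which were fed a high-fat diet (60% of calories) from weaning on, and the livers were taken at 6 weeks of age. How a mouse was classed, when it last ate and at what hour it was sampled are not given in the sources used here, and the labels carry no animal numbers. The p-values therefore measure the spread between these samples.

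Secreted liver proteins tell other organs about the nutrient state. In mouse and human work, fetuin-A (Ahsg) is known to dampen insulin receptor signalling, Angptl4 blocks lipoprotein lipase when fat is being released for use, selenoprotein P (Sepp1) carries selenium to other tissues, and Gdf15 is a stress hormone that lowers food intake through a brainstem receptor. Fndc4 is shed from the cell surface and, in mice, has been described as a liver-derived ligand of a receptor on fat cells. Levels of several of these proteins in blood differ with obesity and fatty liver.

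Each array was labelled with a single dye, and signal is given as log2 of the processed spot intensity minus the 75th percentile of its array. A value of 0 thus means a spot as bright as that percentile, and a difference of 1 means a doubling. All differences are responder minus non-responder, with a standard error (SE), from a limma fit with the slide series as a second term. The arrays came in 2 slide series, each scanned on its own date, with 4 responders and 6 non-responders in the earlier series and 6 responders and 4 non-responders in the later one. The 75th percentile lay between 280.1 and 656.8, the share of spots well above background was 55.8% to 71.2%, and 0 spots were saturated. Signal of 30.3% of genes differed between the slide series at an adjusted p of 0.05, so values within each series are given for the members and for some of the other genes. Hepatocyte markers were bright throughout, with 9 of 10 kept and a mean level of 6.72 to 7.30 in responders and 6.80 to 7.80 in non-responders. Of markers of other tissues, 8 of 9 measured adipocyte markers were lower in responders, with a mean level of -2.90 to -0.19 in responders and -2.06 to 1.69 in non-responders. That level lay above 0 in 0 of 10 responders and 6 of 10 non-responders. An unadjusted limma p under 0.05 was found for 6 of the 9, against 7.99% of all genes, and 0 passed after adjustment. Markers of pancreatic acinar cells and of skeletal muscle were lower in responders in 11 of 11 and 6 of 6 measured genes, with median differences of -0.95 and -1.13, and 0 had an unadjusted p under 0.05. The acinar median was -0.27 in the earlier series and -1.64 in the later one, and the muscle median -0.57 and -1.77. The mean acinar level was -5.83 to 5.15 in responders and -5.08 to 5.16 in non-responders, and it lay above 0 in 5 of 10 responders and 6 of 10 non-responders. The mean muscle level was -6.65 to 4.67 in responders and -5.83 to 4.61 in non-responders, and it lay above 0 in 5 of 10 responders and 7 of 10 non-responders. The part of these other tissues in the results below was not tested.

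The probes of the genes with more than 1 probe, or with the largest described differences, show which stretch of each transcript was read. Below are the first 30 of the 60 bases of each, 5′ to 3′. Fndc4 has 3 probes on chromosome 5, all on the minus strand, at chr5:31595787-31595846, chr5:31595594-31595653 and chr5:31595210-31595269. Tafa5 has 1 probe at chr15:87589382-87589441 on the plus strand. Angptl6 has 1 probe at chr9:20678326-20678385 and another whose 60 bases are spread over chr9:20678511-20679663, as a probe over a splice junction would be, both on the minus strand. These positions are in mm9, as the array's annotation gives them, and whether a probe lies in coding or untranslated sequence was not analysed here.
Fndc4, A_52_P490910: caatcaacaccattgatgtttgatcggatg
Fndc4, A_51_P409825: ccagaatgtaggtctggtagattctgtatc
Fndc4, A_52_P327381: tggacaaactggaactgactggttcctgta
Tafa5, A_51_P462160: ccataggctaaagataggaaagaaagtcca
Angptl6, A_51_P259571: cgtggtggggcgtactctctgaagaaagct
Angptl6, A_52_P319199: ggcacaatgacaaacctttcagcactgtgg

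No gene on the array passed an adjusted p of 0.05 in limma with Benjamini-Hochberg adjustment between responders and non-responders (0 of 17189, 0%), and 1373 (7.99%) had an unadjusted p under 0.05. Of the 7 tested hepatokines, 0 passed the adjusted threshold. At an unadjusted p under 0.05, 0 of the 7 were higher in responders and 1 was lower, where 4.26% of all genes were higher and 3.73% lower. Of these 7, 5 had a difference above 0 and 2 below it, where 48.9% of all genes lay above, and their median was 0.04, against -0.0031 over all genes. Before the slide series was accounted for, 3 of the 7 had a higher plain mean in responders and 4 a lower one, with Ahsg and Angptl6 on the lower side. With normexp background correction Ahsg, Sepp1, Angptl6 and Lect2 turned negative. That setting compressed the values of responder 1 (SD 0.48, against 3.56 in the values reported), which limits every normexp value given here and below. The members separate into 2 that were picked for higher signal in responders (Fndc4 and Tafa5), 1 whose signal was lower in both slide series (Fetub), 2 with a wide spread between livers (Angptl4 and Gdf15) and 4 whose difference was within about 1 SE of 0.

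**Figure D1:**
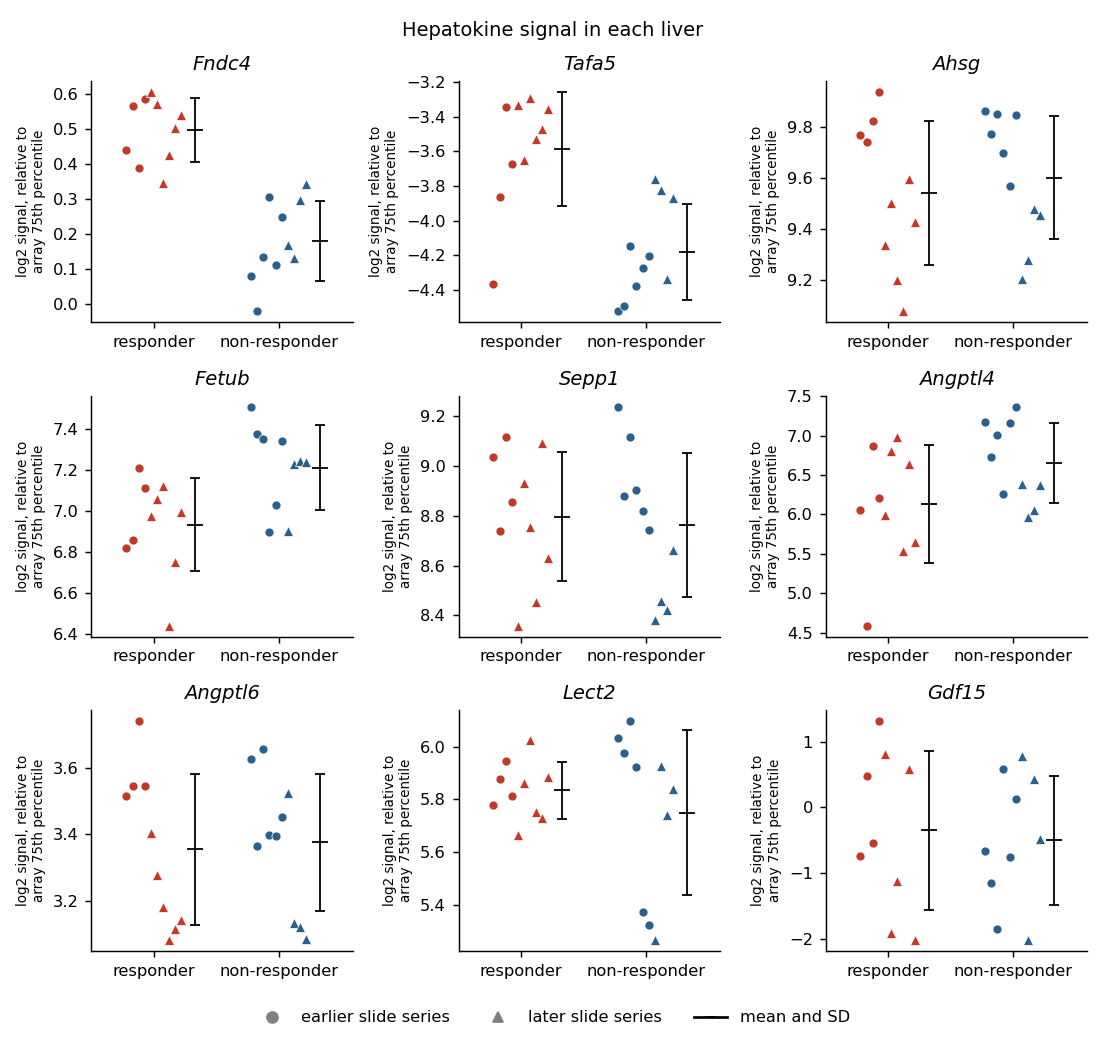
Signal of each of the 9 hepatokines in every liver, responders left and non-responders right, as log2 signal relative to the array's 75th percentile. Circles are the earlier series, triangles the later one, and the bars give mean and SD over 10 arrays (9 responders for Gdf15). Fndc4 shows no overlap between the groups, while the other 8 panels overlap.

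Fndc4 encodes a single-pass membrane protein with a fibronectin type III domain whose outer part is released, and its sequence is close to that of the irisin precursor Fndc5. Its brightest probe read 0.34 at the lowest, 0.52 at the median and 0.61 at the highest in responders, against -0.02, 0.15 and 0.34 in non-responders. The lowest responder, at 0.344, lay just above the highest non-responder, at 0.342, so the 2 groups touch without overlapping. Of all 17189 rows, 1 (0.00582%) had no overlap between the groups, and that row is Fndc4, which was picked for its difference. The difference was 0.31 (SE 0.05), a 1.24-fold higher signal, with 0.35 (SE 0.09) in the earlier series and 0.26 (SE 0.08) in the later one. With normexp it was 0.18 (SE 0.09). That each of the 10 responders exceeded the mean of the non-responders scanned with it follows from the lack of overlap. The signal of this probe also varied little from liver to liver. Its SD within group and series was 0.105, at percentile 4.50 of all genes, where the median gene had 0.228. The other Fndc4 probes, given below, were less steady. In a fit across all probes the SE of their differences was 0.12 and 0.11, against 0.06 for this probe.

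The 3 Fndc4 probes did not give the same size of difference. The probe nearest the 5′ end of the transcript, described above, gave 0.31. The middle one gave 0.25 (SE 0.12) and the one nearest the 3′ end 0.15 (SE 0.11). The middle probe read -0.39 at the lowest, -0.15 at the median and 0.36 at the highest in responders, against -1.01, -0.32 and -0.05 in non-responders. The third read -1.80, -1.41 and -1.09 in responders, against -1.99, -1.59 and -1.21 in non-responders. With these probes the groups overlapped, and in the later series their differences were 0.10 for the middle probe and 0.06 for the third, against 0.39 and 0.24 in the earlier one. Between the probes, the deviations from the group and series means correlated with r from 0.57 to 0.77 over 20 arrays, which share RNA and hybridisation. In the authors' deposited table, where all 3 Fndc4 probes carry the same values, the difference was 0.24 (SE 0.11). With the mean of the Fndc4 probes in place of the brightest one it was 0.23 (SE 0.08).

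**Figure D2:**
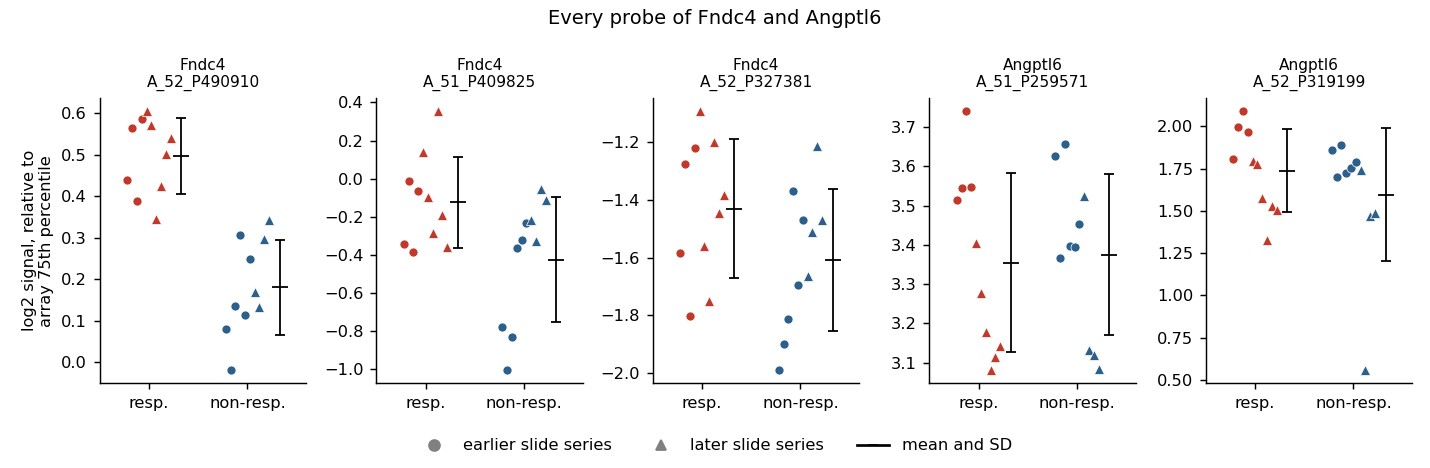
Signal of every probe of Fndc4 and Angptl6, the 2 members with more than 1 probe, in each liver (log2 relative to the array's 75th percentile, responders left, bars mean and SD over 10 arrays, circles and triangles the slide series). The Fndc4 groups are apart for A_52_P490910 and overlap for the other probes, and 1 non-responder lies at 0.56 for Angptl6 probe A_52_P319199, below all other arrays.

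Upstream of Fndc4, the 250 bases before the first of its 2 listed transcription starts (GRCm38.p6, chr5:31295933-31296182, minus strand, sequence from RefSeq) are shown because Fndc4 was the member whose groups did not overlap. The capitals mark the motif GTTAAT, a core of the sites of the hepatocyte factor HNF1, which begins at -121 and which 6.43% of 32851 promoter windows of this length hold on either strand.
Fndc4 promoter: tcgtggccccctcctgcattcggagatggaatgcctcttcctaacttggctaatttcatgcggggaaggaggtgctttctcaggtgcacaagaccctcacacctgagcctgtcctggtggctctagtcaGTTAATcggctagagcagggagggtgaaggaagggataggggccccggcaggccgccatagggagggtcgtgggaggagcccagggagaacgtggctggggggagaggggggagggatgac

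Tafa5 encodes a small secreted protein of a chemokine-like family that is best known from the nervous system and from fat tissue. Its probe was dim, and 1 responder and 1 non-responder array did not have it well above background. It read -4.37 at the lowest, -3.50 at the median and -3.29 at the highest in responders, against -4.52, -4.24 and -3.76 in non-responders. The groups overlap, mainly through responder 1, which lay at -4.37 while the other responders lay at -3.86 or above. The difference was 0.52 (SE 0.11), a 1.43-fold higher signal, with 0.53 (SE 0.18) in the earlier series and 0.51 (SE 0.13) in the later one. It was 0.60 without responder 1, and 0.21 with plain background subtraction and an offset of 50. That offset is not small beside the processed intensity of Tafa5, which was 12.3 to 63.4. Of 10 responders, 9 exceeded the mean of the non-responders scanned with them. Tafa5 signal was itself 0.38 higher in the later series than in the earlier one (limma adjusted p = 0.0115).

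Adipocyte markers were lower on average in the group in which Fndc4 and Tafa5 were higher. In these bulk samples fewer cells of a type and less RNA per cell cannot be told apart. The median difference of the adipocyte markers was -1.36, with Adipoq at -1.37 (SE 0.58) and Plin1 at -1.68 (SE 0.47), and 8 of 9 measured markers were lower. With the mean of these markers as a covariate, the difference was 0.24 (SE 0.06) for Fndc4 and 0.54 (SE 0.13) for Tafa5. Within group and series, Fndc4 had r = -0.51 with the adipocyte marker mean, -0.49 with that of stellate cells and 0.53 with that of lymphocytes. Tafa5 had r = 0.06 with the adipocyte mean. The 11 markers of stellate cells and fibroblasts were all lower in responders as well, with a median of -0.11 (-0.03 in the earlier series and -0.32 in the later one). Of these, 4 had an unadjusted limma p under 0.05, against 7.99% of all genes, and 0 passed after adjustment. Their mean level was 1.17 to 1.90 in responders and 1.37 to 2.10 in non-responders. The part of stellate cells and lymphocytes in the Fndc4 difference was not tested.

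The nearest relatives and receptors of these 2 genes did not pass the test. Of the 15 listed FNDC and TAFA genes 9 were measured. Besides Fndc4 and Tafa5, 1 of them was higher and 6 were lower, 0 of these passed, and the median over the 9 was -0.14. Fndc5, the irisin precursor gene, differed by -0.59 (SE 0.62), and Tafa1 to Tafa4 were not above background often enough to be kept. Adgrf5, an adhesion receptor that mouse work has paired with FNDC4, differed by -0.16 (SE 0.14; limma adjusted p = 0.780). S1pr2, a sphingosine receptor to which TAFA5 has been reported to bind in vascular muscle, differed by 0.44 (SE 0.12; limma adjusted p = 0.489). Its median was -1.04 in responders and -1.46 in non-responders, and the groups overlap.

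The 2 fetuins are plasma glycoproteins of the cystatin superfamily, made almost wholly by hepatocytes. Their genes lie next to each other on chromosome 16, followed by Hrg, Kng2 and Kng1, which encode histidine-rich glycoprotein and kininogens of the same superfamily. Ahsg encodes fetuin-A, which inhibits the insulin receptor kinase and tissue calcification. Fetub encodes fetuin-B, which inhibits the egg protease ovastacin. Their promoters (RefSeq, GRCm38.p6, plus strand, 250 bases before the start) are shown because the genes are neighbours in the genome. The Ahsg window is chr16:22891765-22892014, and its capitals mark a match to the C/EBP motif TTNCGCAA at -32, held by 0.67% of the 32851 windows. The Fetub window, at the first of 2 listed starts, is chr16:22918132-22918381, and its capitals mark the SP1 motif GGGCGG at -186 and a TATA box TATAAA at -31, held by 32.7% and 12.4% of windows. All motifs were searched on both strands, and no motif overlaps another in these 3 windows.
Ahsg promoter: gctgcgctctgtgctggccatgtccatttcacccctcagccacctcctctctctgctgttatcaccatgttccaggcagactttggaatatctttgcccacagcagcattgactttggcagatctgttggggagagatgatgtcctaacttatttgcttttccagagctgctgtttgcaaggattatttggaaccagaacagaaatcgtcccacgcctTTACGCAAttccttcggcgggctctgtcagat
Fetub promoter: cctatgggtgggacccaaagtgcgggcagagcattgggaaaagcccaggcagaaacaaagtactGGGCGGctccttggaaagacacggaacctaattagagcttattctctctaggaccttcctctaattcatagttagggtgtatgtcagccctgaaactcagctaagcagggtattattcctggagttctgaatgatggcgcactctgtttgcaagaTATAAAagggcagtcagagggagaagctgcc

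Fetub was the only tested hepatokine whose difference had a 95% interval that left out 0 before adjustment, at -0.46 to -0.05. Its probe (chr16:22939736-22939795, mm9) read 6.44 at the lowest, 6.98 at the median and 7.21 at the highest in responders, against 6.90, 7.24 and 7.51 in non-responders. The groups overlap between 6.90 and 7.21, and responder 7 stands lowest. The difference was -0.26 (SE 0.10), a 1.20-fold lower signal, with an unadjusted p = 0.0163 and a limma adjusted p = 0.541 over all genes. With normexp background correction the difference was -0.77, but that setting also lowered Ahsg, Sepp1, Angptl4, Angptl6 and Lect2. The 2 slide series gave -0.25 and -0.26, and each of the 10 responders lay below the mean of the non-responders scanned with it. Within group and series, Fetub had r = 0.57 with the hepatocyte marker mean and -0.65 with the Kupffer cell marker mean. The 10 Kupffer cell markers had a median difference of -0.03, with 3 higher and 7 lower, and a mean level of 1.62 to 2.69 in responders and 1.98 to 3.38 in non-responders. The part of other cells in the Fetub difference was not tested.

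Ahsg showed a difference near 0. It read 9.08 at the lowest, 9.55 at the median and 9.94 at the highest in responders, against 9.20, 9.63 and 9.86 in non-responders, and the groups overlap almost fully. The difference was 0.03 (SE 0.07; 95% interval -0.11 to 0.17), with a limma adjusted p = 0.932, and the earlier series gave 0.05 (SE 0.08) and the later one 0.0023 (SE 0.11). Ahsg signal was 0.44 lower in the later series (limma adjusted p = 9.57e-05). Whether the difference of Fetub and that of Ahsg are unlike was not tested. The other genes of this stretch lay near 0, with Hrg at 0.05 (SE 0.07), Kng2 at 0.10 (SE 0.05) and Kng1 at -0.02 (SE 0.06). Of the 9 listed cystatin family genes 7 were measured, 3 of them higher and 4 lower, and 0 passed, with a median of -0.0085. From liver to liver within group and series, Fetub had r = 0.77 with Hrg, 0.57 with Kng1, 0.55 with Ahsg and -0.01 with Kng2 over 20 arrays.

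The receptor genes named here for the fetuins gave no call. Insr, the insulin receptor gene, differed by -0.03 (SE 0.07), and the toll-like receptor gene Tlr4, to which fetuin-A presents fatty acids, by -0.23 (SE 0.12). Of the proteases that fetuins inhibit, only Astl, the ovastacin gene, is named here. It was not above background often enough to be kept and has no value.

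Sepp1 encodes selenoprotein P, the main selenium carrier of plasma, which other tissues take up through receptors of the LDL receptor family. It read 8.36 at the lowest, 8.81 at the median and 9.12 at the highest in responders, against 8.38, 8.78 and 9.24 in non-responders. The groups overlap over nearly their whole range, and the difference was 0.11 (SE 0.10; 95% interval -0.10 to 0.31), with a limma adjusted p = 0.798. The earlier series gave -0.01 (SE 0.12) and the later one 0.22 (SE 0.15), with an interaction term of 0.24 (SE 0.19; limma adjusted p = 0.710). Sepp1 signal was 0.35 lower in the later series (limma adjusted p = 0.00970).

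The machinery that makes selenoproteins gave no call either. All 24 listed genes were measured, 19 of them higher and 5 lower, with a median of 0.06, and 0 passed. Sephs2, which makes the selenium donor, differed by -0.03 (SE 0.08), Gpx1, the abundant glutathione peroxidase gene, by 0.09 (SE 0.05) and the deiodinase gene Dio1 by 0.11 (SE 0.14). Among the uptake receptors, Lrp2 differed by 0.50 (SE 0.24; limma adjusted p = 0.627) and Lrp1 by 0.13 (SE 0.07), and Lrp8 was not kept.

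Angptl4 encodes a secreted inhibitor of lipoprotein lipase that fasting and fatty acids induce through PPAR receptors. It read 4.59 at the lowest, 6.13 at the median and 6.98 at the highest in responders, against 5.97, 6.55 and 7.37 in non-responders. The groups overlap over most of their range, and responder 10 stands alone at the bottom. The difference was -0.48 (SE 0.28; 95% interval -1.06 to 0.11), with a limma adjusted p = 0.698. Without responder 10 it was -0.22, and the lowest value over all arrays left out in turn was -0.57. Normexp gave -0.96, with the limit given above.

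The Angptl4 difference took unlike values by slide series. In the earlier series, responders read 4.59 to 6.87 and non-responders 6.26 to 7.37, a difference of -1.02 (SE 0.39). Responder 10, at 4.59, belongs to this series, whose other responders read 6.05 to 6.87. The comparison of the series was not refitted without it. In the later series, responders read 5.53 to 6.98 and non-responders 5.97 to 6.39, a difference of 0.07 (SE 0.30). The later responders therefore spread to both sides of the non-responders. The interaction term was 1.09 (SE 0.51), with an unadjusted p = 0.0466 and a limma adjusted p = 0.508, where 9.67% of all genes had an unadjusted p under 0.05 for it. Other genes that PPARA drives were set beside it. The median difference of 20 PPARA targets was -0.38 in the earlier series and 0.012 in the later one, and over all arrays 5 of 20 were higher and 15 lower, with 0 past the threshold. Pdk4 differed by -0.61 (SE 0.70) and Cyp4a14 by -1.58 (SE 0.75), the second with -2.26 in the earlier series and -0.90 in the later one.

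**Figure D3:**
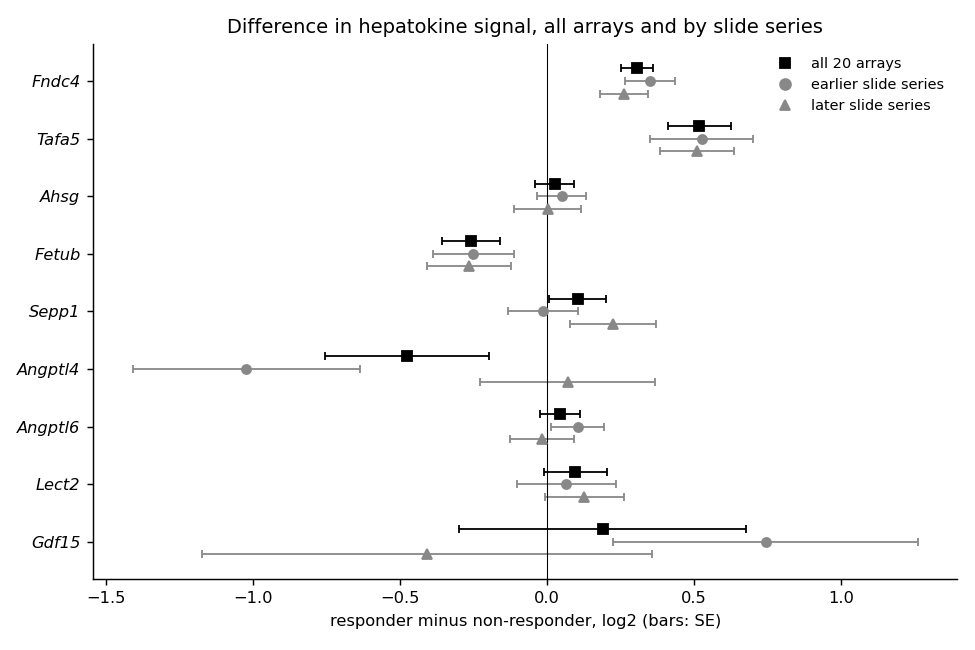
Responder minus non-responder difference of each hepatokine on the log2 scale, with SE bars, over all 20 arrays (black squares) and within the earlier (grey circles) and later (grey triangles) slide series. The Angptl4 difference is -1.02 in the earlier series and 0.07 in the later one and the Gdf15 difference is 0.74 and -0.41. Sepp1 and Angptl6 change side too, while Fndc4, Tafa5, Fetub, Ahsg and Lect2 lie on the same side in both.

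From liver to liver, the correlation of Angptl4 with the 20 PPARA targets had a median of 0.21 and was above 0 for 17 of them. Within group and series it had r = 0.72 with Igfbp1, whose protein binds insulin-like growth factors in plasma and whose transcription insulin represses, 0.64 with Kng1 and 0.43 with Fgf21, the fasting hormone gene. Its r was -0.11 with Pdk4 and 0.07 with Cyp4a14. Igfbp1 read 3.74 to 6.52 in responders and 5.27 to 7.31 in non-responders, with a difference of -1.56 (SE 0.35; limma adjusted p = 0.346), and it was -2.37 in the earlier series and -0.74 in the later one. Fgf21 differed by -0.60 (SE 0.47), with -1.37 in the earlier series and 0.17 in the later one. These correlations are descriptions, across arrays that share their processing.

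The lipase side of Angptl4 was measured too. Lpl, the lipoprotein lipase gene, differed by -0.62 (SE 0.28; limma adjusted p = 0.611), with -0.33 in the earlier series and -0.91 in the later one, and Lpl is also high in fat tissue, whose markers were lower in responders. Gpihbp1, which anchors the lipase on capillaries, differed by -0.02 (SE 0.09), and the hepatic lipase gene Lipc by 0.30 (SE 0.07; limma adjusted p = 0.489). Lipc read 1.36 to 1.99 in responders and 1.17 to 1.53 in non-responders, and the groups overlap. Of 23 listed receptors and direct targets of the hepatokines 17 were measured, 9 of them higher and 8 lower, with a median of 0.03, and 0 passed. Among the 17, 5 genes had an unadjusted limma p under 0.05, against 7.99% of all genes, in a list chosen with earlier results of these data known. They were S1pr2, Lpl, Lipc, the lipase maturation factor gene Lmf1 at 0.19 (SE 0.05) and the integrin gene Itgb3 at -0.65 (SE 0.29), with -1.02 in the earlier series and -0.29 in the later one. Lmf1, Itgb3, S1pr2, Lrp2, Tlr4, Met, Tie1, Atf5 and Chac1 were named after their values were seen.

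Angptl6 encodes a circulating angiopoietin-related growth factor that, in mice, counters obesity when present in excess. It read 3.08 at the lowest, 3.34 at the median and 3.74 at the highest in responders, against 3.08 at the lowest, 3.396 at the median and 3.66 at the highest in non-responders. The groups overlap over nearly their whole range, and the difference was 0.04 (SE 0.07; 95% interval -0.10 to 0.19), with a limma adjusted p = 0.873. The earlier series gave 0.11 (SE 0.09) and the later one -0.02 (SE 0.11). Its signal was 0.33 lower in the later series (limma adjusted p = 0.00127). The split probe read 1.33 at the lowest, 1.79 at the median and 2.09 at the highest in responders, against 0.56, 1.73 and 1.89 in non-responders. Non-responder 7 stands far below the rest there, and the difference was 0.23 (SE 0.11; limma adjusted p = 0.628 over all probes). The deviations of the 2 probes correlated with r = 0.58 over 20 arrays.

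The other angiopoietin-like genes did not pass. Of 7 listed, 6 were measured, 4 of them higher and 2 lower, with a median of 0.05. Angptl8, an insulin-induced gene of this family, differed by 0.15 (SE 0.31), with 0.73 in the earlier series and -0.44 in the later one.

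Lect2 encodes a chemotactic hepatokine that binds the receptor tyrosine kinases Met and Tie1 and is reported to rise in fatty liver. It read 5.67 at the lowest, 5.84 at the median and 6.03 at the highest in responders, against 5.26, 5.88 and 6.10 in non-responders. Non-responders 5, 6 and 10 lay at 5.37, 5.32 and 5.26, while the other 17 livers lay between 5.67 and 6.10. The difference was 0.10 (SE 0.11; 95% interval -0.13 to 0.32), with a limma adjusted p = 0.828. It was 0.030 without non-responder 10 and 0.24 with the adipocyte marker mean as a covariate. The earlier series gave 0.07 (SE 0.17) and the later one 0.13 (SE 0.13). The SD was 0.108 in responders and 0.314 in non-responders (n = 10 each), and that gap follows from the 3 low livers. Met differed by 0.03 (SE 0.10) and Tie1 by -0.03 (SE 0.10). Within group and series, Lect2 had r = -0.66 with Fgf21 and 0.52 with the hepatocyte marker mean.

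Gdf15 encodes a cytokine of the transforming growth factor family that cell stress induces and that acts on the brainstem receptor made of GFRAL and RET. It read -2.02 at the lowest, -0.55 at the median and 1.31 at the highest in 9 responders, against -2.02, -0.58 and 0.77 in 10 non-responders. The groups overlap over nearly their whole range. The spot of responder 7 was flagged as an outlier by the scanner software and left out, and it read 0.61 when kept. The difference was 0.19 (SE 0.49; 95% interval -0.83 to 1.21), with a limma adjusted p = 0.932, and 0.28 with that spot kept. It was 0.74 (SE 0.52) in the earlier series and -0.41 (SE 0.77) in the later one, and the interaction term was -1.15 (SE 0.97; limma adjusted p = 0.718). The sign rested on single livers, since the difference was -0.049 without responder 3 and -0.0091 without non-responder 7. Gfral and Ret were not above background often enough to be kept.

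**Figure D4:**
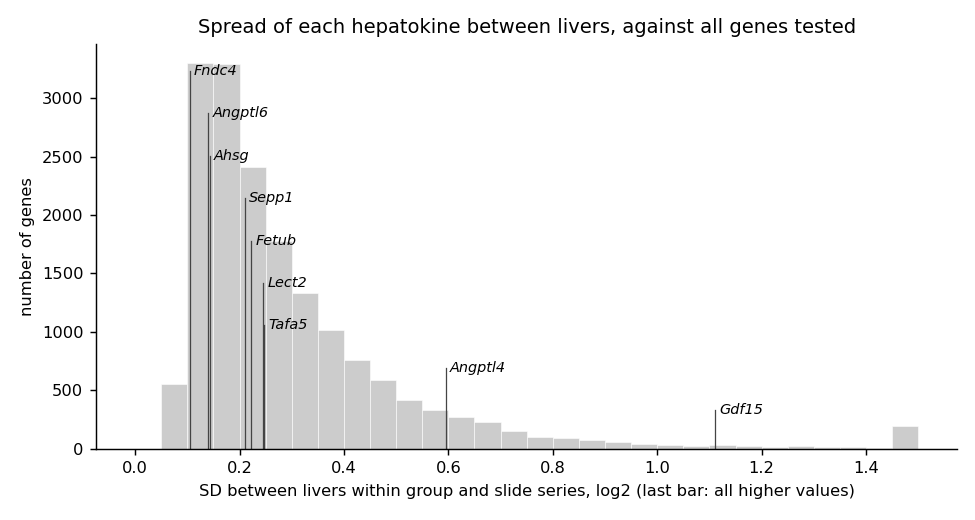
Number of genes by the SD of their signal between livers within group and slide series (log2, with all higher values in the last bar), with the 9 hepatokines marked by lines whose heights carry no value. Each gene is shown by its brightest probe. Gdf15 at 1.11 and Angptl4 at 0.595 lie in the right tail, and Fndc4 at 0.105 lies near the left edge.

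Gdf15 varied more than the other hepatokines from liver to liver. Its SD within group and series was 1.11, at percentile 98.1 of all genes, and its highest array was 10.1-fold above its lowest. Angptl4 followed with 0.595, at percentile 91.6, and a 6.88-fold span. The other 7 lay between percentiles 4.50 and 54.8, with spans of 1.54-fold for Fndc4 to 2.35-fold for Tafa5. These values are for the brightest probe of each gene. The middle Fndc4 probe spread more widely than the brightest one, from -1.01 to 0.36 over all arrays.

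Stress-response genes had mixed correlations with Gdf15. Within group and series, its r with the 21 measured integrated stress response and p53 target genes ran from -0.54 (Chac1) to 0.68 (Atf5), with a median of 0.04. It was 0.01 with Ddit3, 0.25 with Atf3 (over 18 arrays) and 0.22 with Trib3. It had r = 0.86 with Angptl8 and 0.57 with Fgf21, over 19 arrays. It also had r = 0.70 with the Kupffer cell marker mean and 0.64 with the lymphocyte marker mean, and their part in the spread of Gdf15 was not tested. Of 22 listed genes of that kind 21 were measured, 7 of them higher and 14 lower in responders, with a median of -0.14, and 0 passed. Ddit3 differed by 0.10 (SE 0.12), Atf3 by -0.23 (SE 0.14) and Trib3 by -0.35 (SE 0.28), with 0.21 in the earlier series and -0.91 in the later one.

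**Figure D5:**
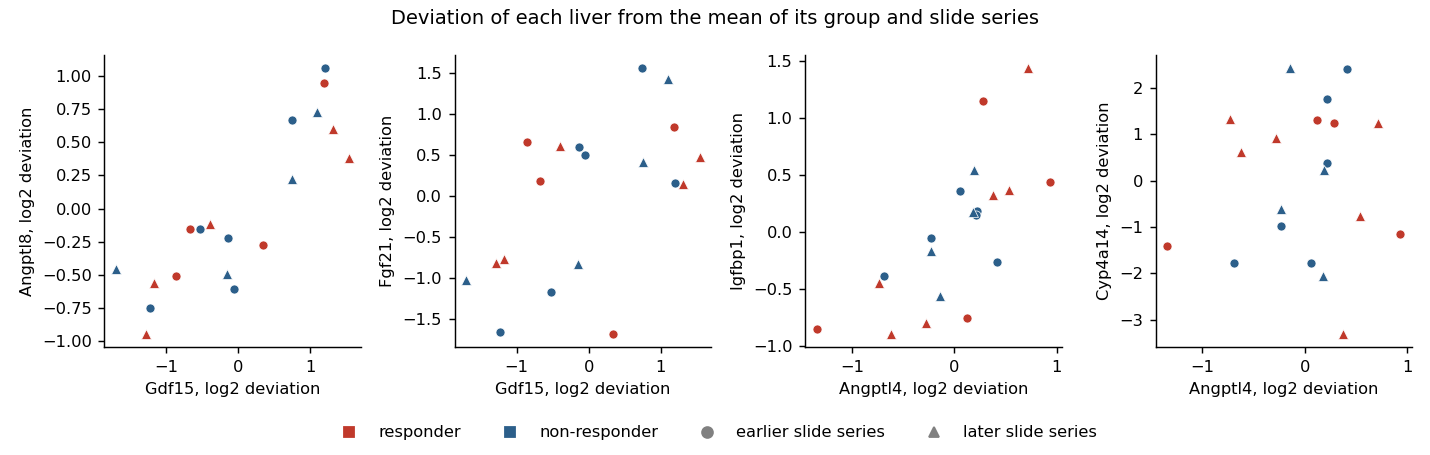
Deviation of each liver from the mean of its group and slide series (log2), for Gdf15 against Angptl8 and Fgf21 and for Angptl4 against Igfbp1 and Cyp4a14. Responders are red, non-responders blue, circles the earlier series and triangles the later one. The points follow a line for Gdf15 with Angptl8 (r = 0.86) and scatter for Angptl4 with Cyp4a14 (r = 0.07).

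The members did not form a single block across livers. The highest correlations within group and series were those of Ahsg with Sepp1 (r = 0.56) and with Fetub (0.55), of Sepp1 with Angptl4 (0.54) and of Fetub with Angptl4 (0.49). The lowest was that of Lect2 with Gdf15 (-0.50). Fndc4 and Tafa5, both higher in responders, had r = -0.06 with each other once the group means were removed.

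For each member, the 3 genes with the most similar pattern were taken from 13667 symbols by Pearson r over the 20 arrays (19 for Gdf15), with each slide series mean removed and the group difference left in. Fndc4 was most like Gpr19 (0.87), Macroh2a1 (0.87) and Ppp1ca (0.87). Tafa5 was most like Rexo1 (0.73), Serpina12 (0.72) and Hyi (0.70). For Ahsg the genes were Rn18s (0.86) and the coagulation genes F2 (0.84) and Serpinc1 (0.84). For Fetub they were Dnase1 (0.85), Sidt2 (0.83) and Polr1a (0.82), and for Sepp1 Mup4 (0.86), Amn1 (0.80) and Bmp7 (0.80). For Angptl4 they were Zfp750 (0.92), Egfr (0.89) and Fbxo31 (0.88), and for Angptl6 Celf1 (0.79), Phpt1 (0.78) and Mrpl18 (0.75). For Lect2 they were Akr1c19 (0.87), Bbox1 (0.84) and Nln (0.82), and for Gdf15 Tgm2 (0.87), Cdc23 (0.87) and Angptl8 (0.86). These are the highest of many values, from arrays that share their processing.

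Other factors that the liver secretes gave no call. Of 40 listed, 37 were measured, 23 of them higher and 14 lower, with a median of 0.03, and 0 passed, while 6 of the 37 had an unadjusted p under 0.05, where 7.99% of all genes had one. Besides Igfbp1, Fgf21 and Angptl8, given above, Enho, the adropin gene, differed by 0.06 (SE 0.15), with 0.45 in the earlier series and -0.34 in the later one. Hamp, which encodes the iron hormone hepcidin, differed by -0.43 (SE 0.33), with -0.68 in the earlier series and -0.18 in the later one. Serpina12, the vaspin gene that tracked Tafa5, read -2.06 to -0.96 in responders and -2.73 to -1.70 in non-responders, with a difference of 0.73 (SE 0.16; limma adjusted p = 0.346). Acute phase genes, which include other abundant plasma proteins, were higher in 18 of 22 and lower in 4, with a median of 0.08, and 0 passed. That median was 0.03 in the earlier series and 0.19 in the later one.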

How the data were processed

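Liver RNA of 20 mice was hybridised to single-colour Agilent arrays. The deposited files hold spot intensity on a linear scale, written by Agilent Feature Extraction (10.5.1.1 per the file headers, 9.1 per the submitters' processing notes), with the processed intensity already background-subtracted. Here its log2 was taken and each array's 75th percentile subtracted. The authors' deposited table of processed intensity, of unstated origin, served as an alternative. Control and outlier-flagged spots were left out, a probe stayed in when at least 5 responder or 5 non-responder arrays had it well above background (26160 of 41174), and the brightest kept probe stood for a gene. Symbols came from RefSeq's gene table (GRCm38.p6, names only) by accession for 27578 probes. RefSeq promoter windows matched 8 of the 9 hepatokines.

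The comparison used limma 3.58.1 (lmFit and eBayes, R 4.3.3), a model of group plus slide series, Benjamini-Hochberg adjustment and a threshold of 0.05. An interaction term was fitted across all genes as well. The 20 arrays lay on 13 slides, 3 of them with both groups. On simulated data with 200 of 17189 genes changed by 1, the fit recovered a median of 90.5%, with a median of 2 false calls over 5 simulations. Over all arrays every hepatokine differed by less than that, and recovery of smaller changes was not simulated. The number of arrays limits the precision. The hepatokines, gene lists and marker lists were chosen with earlier results of these data known. The text names all members, the 3 most similar genes of each, and a list of family members and partners, some of which are not reported here. Alternatives covered background correction, scaling, filters, variance model, slide, replicate numbers and left-out arrays.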

Additional observations from a re-analysis of the deposited data

Results flagged for a closer look

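Values were checked for a lowest or highest array that stood apart in 24 groups of arrays (12 probes in 2 groups), and about 1 group in 20 is flagged by chance. For Angptl6 probe A_52_P319199, non-responder 7 lay at 0.557, with the next array of its group at 1.47. For Tafa5, responder 1 lay at -4.37, with the next responder at -3.86, and leaving that array out gave a difference of 0.60 in place of 0.52.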

How the results depend on the processing

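Under each of 17 alternatives and each of the 20 arrays left out in turn, 0 genes passed the adjusted threshold, with 400 to 1831 genes at an unadjusted p under 0.05. Fndc4 and Tafa5 stayed higher and Fetub stayed lower in responders in each of these fits that gave them a value. Since Fndc4 and Tafa5 were picked for this difference in the same arrays, their steady sign is a description and no test. The ranges with an array left out were 0.29 to 0.33 for Fndc4, 0.45 to 0.60 for Tafa5, -0.30 to -0.21 for Fetub, -0.57 to -0.22 for Angptl4, -0.049 to 0.40 for Gdf15, 0.0044 to 0.054 for Ahsg, 0.063 to 0.15 for Sepp1, 0.016 to 0.097 for Angptl6 and 0.030 to 0.13 for Lect2. Gdf15 also turned to -0.0091 without non-responder 7. Normexp background correction turned Ahsg to -0.46, Sepp1 to -0.41, Angptl6 to -0.34 and Lect2 to -0.45 and gave 0.18 for Fndc4. That setting left a narrow spread of values on responder 1 (SD 0.48, against 3.56 in the values reported). Plain background subtraction, added after seeing the data, gave 0.21 for Tafa5. Ahsg turned to -0.033 with quantile normalization, -0.030 in the authors' deposited table, -0.061 without the slide series term and -0.0099 with adipocyte markers as a covariate. Angptl6 turned to -0.021 without the series term. The earlier slide series alone gave -0.013 for Sepp1. The later one alone gave 0.071 for Angptl4, -0.016 for Angptl6 and -0.41 for Gdf15. Gdf15 was -0.37 with adipocyte markers as a covariate. The causes of these turns were not tested.

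With the number in the sample title as a replicate block, 0 genes passed, 1831 had an unadjusted p under 0.05 against 1373, and Angptl6 was -0.00055. Angptl4 was -0.62 (SE 0.18; limma adjusted p = 0.297) with that block. Same-numbered arrays deviated together in 6 of 10 pairs only (correlation over 0.1, range -0.18 to 0.59), so the numbers were not read as pairs. Sepp1 had no value in the authors' deposited table, and Tafa5 had none when probes had to be well above background on all arrays. Signal over background limits Tafa5 most.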
